A study of Mus musculus with 6 samples.

Results

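The 10 genes of this account encode the enzymes that modify and cross-link collagen: the lysyl oxidases Lox, Loxl1, Loxl2, Loxl3 and Loxl4, the catalytic subunits of collagen prolyl 4-hydroxylase P4ha1, P4ha2 and P4ha3, and the lysyl hydroxylases Plod1 and Plod2. They were found as the non-control spots whose description or designed transcript names one of them, and are 10 of 22253 named genes on the array. They had 19 probes, each printed as 1 spot, and 3 of the genes had 1 probe only. RNA came from cultured 1G11 mouse microvascular endothelial cells, labeled as of strain C57BL/6NCrLBR, in a mock-transfected line (1G11-mock) and a line that overexpresses superoxide dismutase-3 (1G11-SOD3), the extracellular enzyme that disposes of superoxide. Both lines had spent 6 h in conditioned medium of N202.1A cells, a mouse mammary cancer line, to resemble the surroundings of a tumor vessel, so no sample shows the cells without that medium. The labels give 3 biological replicates per line, hybridized to 6 single-color Agilent arrays on 1 slide, and there is 1 line of each kind, so an effect of the transgene and another difference between the lines cannot be told apart. The question put to the data was how the genes of this group differed between 1G11-SOD3 and 1G11-mock cells.

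Collagen chains are hydroxylated in the endoplasmic reticulum before they fold. Prolyl 4-hydroxylation stabilizes the triple helix, and lysyl hydroxylation prepares sites for sugars and for cross-links. Both reactions need iron, oxygen and 2-oxoglutarate. Outside the cell, lysyl oxidases, which carry copper and a quinone made from their own side chains, oxidize lysines of collagen and elastin to aldehydes that then join neighboring molecules. In endothelium these enzymes act on the collagen IV of the basement membrane and, where it is made, on fibrillar collagen and elastin. Lox, Loxl2, P4ha1, P4ha2 and Plod2 are textbook targets of hypoxia-inducible factors (HIF).

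Of the 10 genes, Lox was higher and Loxl4 was lower in 1G11-SOD3 cells, and the single probe of Loxl3 was higher but lies in a part of the array that read dim on the 1G11-mock arrays. No probe of Loxl1, Loxl2, P4ha1, P4ha2, P4ha3, Plod1 or Plod2 passed the threshold, which was a change beyond 2-fold together with an adjusted p below 0.05 in limma. Outside the middle of the array, 1 of 17 member probes was called higher and 1 lower, against 0.660% and 1.20% of all 49526 probes tested there. In the middle, both of the 2 member probes were called higher, where 12.0% of all 6435 probes were. With dim probes left out of the fit, 825 of the 2278 remaining there were called higher, both member probes among them. Cultures measured in bulk cannot tell fewer cells of a type from less RNA per cell.

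The middle of the array is kept apart throughout. It is a central block of the 384 rows and 164 columns of spots, in which 1G11-mock arrays read dim. A smooth surface fitted to each array differed between the lines there by 1.5 (median, log2 scale), with 1G11-SOD3 the brighter, and by 0.27 elsewhere. Each line had its own row of the slide, so slide row and cell line cannot be told apart. For many of the member probes a second value is given after this surface was taken off each array, and the plot of member fold changes shows it for every one. For other genes outside the middle it is given where it changed a call. The adjustment moved the median log2 fold change of all probes from -0.06 to 0.09 outside the middle and from 0.19 to -0.65 within it. An adjusted value in the middle is therefore to be read against a shifted center. These medians include dim probes. With dim probes left out, the unadjusted median of the 2278 remaining in the middle was 1.13, and their adjusted median was not computed. Between 34.2% and 43.8% of the spots of an array were well above background. Sod3 itself, which checks the labels, also lies in the middle: its probe read 13.61, 12.66 and 9.86 on the 1G11-mock arrays and 16.37, 16.30 and 16.26 on the 1G11-SOD3 arrays, a log2 fold change of 4.27 (adjusted p = 0.00742 in limma) that was 2.70 after adjustment. All 3 1G11-SOD3 arrays were brighter than every 1G11-mock array. Without 1G11-SOD3 replicate 3 its adjusted p in limma was 0.0508.

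Sequences that bear on the measurements are shown first. The probes of Loxl1 and Loxl2 below are shown because lysyl oxidases are related in sequence, and those of Plod1 because its probes gave different values. Each is the 60-base oligonucleotide of the array, designed on a transcript and therefore exonic. Positions were taken from the array files, which do not name their build, and all 19 member probes lie outside the bounds of their genes in the RefSeq table of GRCm38.p6.
Loxl1 probe 1 (chr9:58138570-58138629, minus strand): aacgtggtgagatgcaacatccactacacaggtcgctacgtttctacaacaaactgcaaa
Loxl2 probe 1 (chr14:70092141-70092200, plus strand): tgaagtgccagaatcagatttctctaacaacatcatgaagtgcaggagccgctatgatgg
Plod1 probe 1 (chr4:147290037-147291457, minus strand, across a splice junction): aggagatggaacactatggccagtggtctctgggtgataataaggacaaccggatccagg
Plod1 probe 3 (chr4:147302568-147302627, minus strand): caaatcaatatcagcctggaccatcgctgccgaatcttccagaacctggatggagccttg
Probes of different members were compared with each other, and not with the transcripts of other members. The closest pair in an alignment without gaps was Lox probe 1 with Loxl1 probe 1, which were identical at 31 of the 51 bases that overlapped. The next was Plod1 probe 1 with Plod2 probe 1, identical at 28 of 57 bases. How far related transcripts hybridized to these probes was not tested.

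Upstream sequence was at hand for 5 of the 10 genes, as the 250 bases before the start of the gene in RefSeq (GRCm38.p6). Those of P4ha1, P4ha2 and Loxl4 are shown, the first pair as genes known to answer to HIF and Loxl4 as the member that was lower. Capitals mark the hypoxia response core, ACGTG or GCGTG on either strand, and matches to the κB motif, which the series is about.
P4ha1 (chr10:59323046-59323295, plus strand): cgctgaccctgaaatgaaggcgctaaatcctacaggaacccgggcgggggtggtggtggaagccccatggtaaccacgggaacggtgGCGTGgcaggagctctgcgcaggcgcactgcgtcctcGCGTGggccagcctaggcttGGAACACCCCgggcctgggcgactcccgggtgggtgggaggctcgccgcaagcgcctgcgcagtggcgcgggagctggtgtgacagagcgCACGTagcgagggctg
P4ha2 (chr11:54100674-54100923, plus strand): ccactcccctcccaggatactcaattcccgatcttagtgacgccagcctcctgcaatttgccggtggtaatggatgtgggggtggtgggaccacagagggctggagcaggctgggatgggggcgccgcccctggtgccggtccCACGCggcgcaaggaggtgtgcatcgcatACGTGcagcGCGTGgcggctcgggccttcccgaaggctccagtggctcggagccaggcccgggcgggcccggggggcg
Loxl4 (chr19:42612807-42613056, minus strand): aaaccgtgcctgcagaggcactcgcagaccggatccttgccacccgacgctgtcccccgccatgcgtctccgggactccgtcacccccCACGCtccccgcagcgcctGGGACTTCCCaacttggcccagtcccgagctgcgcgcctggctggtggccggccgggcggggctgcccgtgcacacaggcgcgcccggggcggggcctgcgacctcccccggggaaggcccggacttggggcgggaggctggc
The core began 163, 126 and 16 bases before the start in P4ha1. P4ha2 also held 3 matches, among them those at 78 and 69 bases. Loxl4 held it at 162 bases, and Plod1 held 1 at 20 bases. P4ha3 had none in this window. The core stood in 38.6% of all 32851 upstream windows of this length. The κB motif was matched in Loxl4 at 143 bases and in P4ha1 at 106 bases before the start, and in 7.25% of all windows. No match overlapped another motif. These are matches of letters only, and binding was not measured.

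Lox, the founding lysyl oxidase and a secreted enzyme that acts on fibrillar collagen and elastin, was measured by a probe outside the middle and by another within it. The outside probe (chromosome 18) read 7.94, 7.97 and 8.45 on the 1G11-mock arrays and 9.74, 9.24 and 9.61 on the 1G11-SOD3 arrays. The lines did not overlap, and the lowest 1G11-SOD3 value was above the highest 1G11-mock value. Its log2 fold change was 1.41 ± 0.25 (SE, n = 3 arrays per line), a 2.66-fold difference (adjusted p = 0.0104, limma). Of the spots, 1 of 3 in 1G11-mock and 3 of 3 in 1G11-SOD3 were well above background, so the 1G11-mock level is close to the limit of the measurement. After position adjustment the value was 1.31 and the adjusted p in limma 0.0064, and over 14 other settings it stayed between 1.06 and 1.89 and was called in all 14. The call was lost when 1 of 3 particular arrays was left out: the adjusted p in limma was 0.0546 without 1G11-mock replicate 2, 0.0547 without 1G11-SOD3 replicate 1 and 0.0565 without 1G11-SOD3 replicate 3, at log2 fold changes of 1.33, 1.31 and 1.37.

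The probe of Lox in the middle of the array read 8.19, 8.34 and 8.03 on the 1G11-mock arrays and from 9.99 to 10.17 on the 1G11-SOD3 arrays. Again the lines did not overlap, and the spread within a line was narrow (SD of 0.16 and 0.10, n = 3). The log2 fold change was 1.87 ± 0.22 (SE; adjusted p = 0.00111 in limma), or 3.66-fold. The fitted surface at this spot differed by 1.14 between the lines, and after adjustment the log2 fold change was 1.23 (adjusted p = 0.0174 in limma). It was called in all 13 other settings and with any 1 array left out. The direction was the same for both Lox probes, in and out of the dim area, before and after the adjustment.

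Loxl4, a lysyl oxidase with scavenger receptor domains before its catalytic part, fell in 1G11-SOD3 cells by its first probe (chr19:42667320-42667379). This probe read 11.63, 11.98 and 12.13 on the 1G11-mock arrays and 9.94, 10.51 and 10.60 on the 1G11-SOD3 arrays. All spots were well above background and the lines lay more than 1 log2 unit apart at their nearest arrays. The log2 fold change was -1.56 ± 0.26 (SE), 2.96-fold lower, with an adjusted p of 0.00742 in limma. It was -1.50 after position adjustment (adjusted p = 0.0041 in limma), between -1.81 and -1.39 over the 14 other settings, and between -1.71 and -1.36 when 1 array was left out, and was called in each of these fits. The second probe (chr19:42668733-42668792) read 11.42, 11.89 and 12.26 against 10.06, 11.41 and 11.17. Its lines came close to each other without overlap, and 1G11-SOD3 replicate 1 lay far below the other two. Its log2 fold change of -0.98 ± 0.35 (95% interval -1.75 to -0.20) was not called (adjusted p = 0.212 in limma, 0.0526 with the replicate number as a block). The probes had the same direction and overlapping intervals, since that of the first was -2.13 to -1.0.

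**Figure D1:**
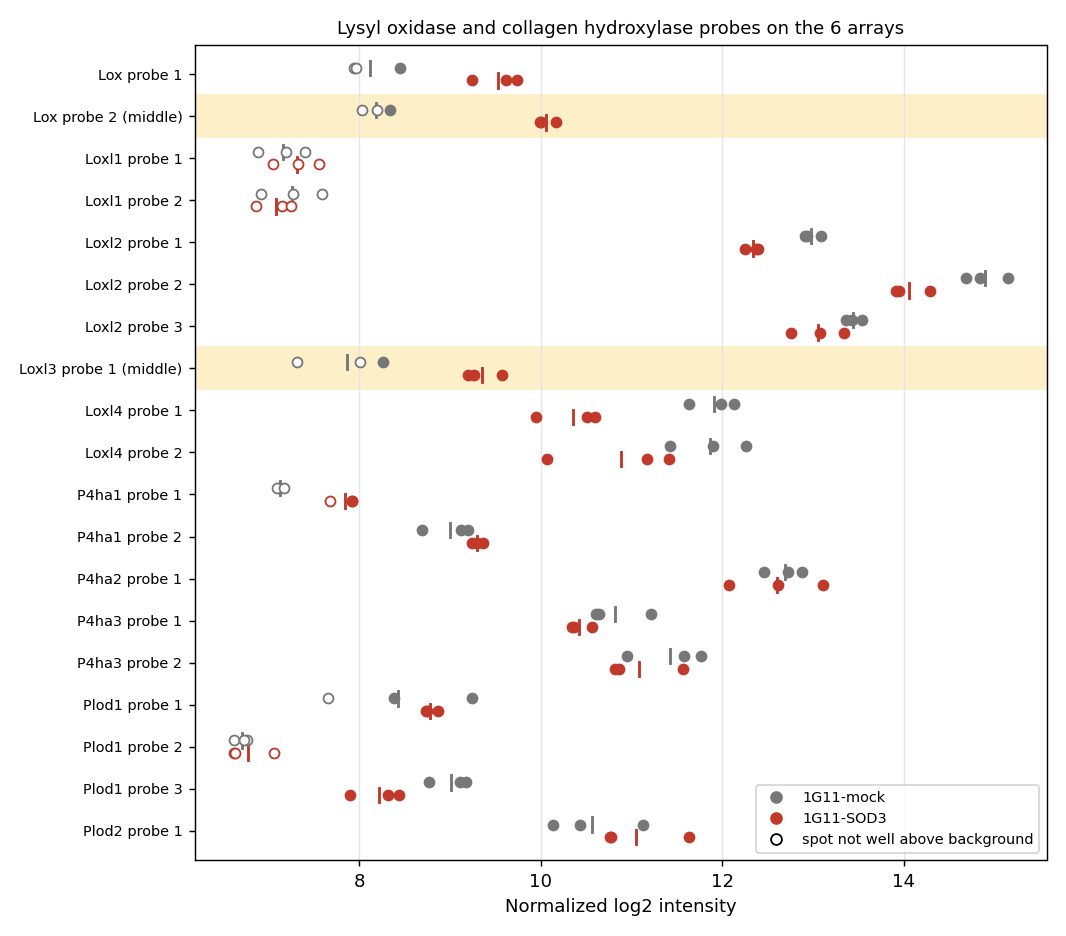
Normalized log2 intensity (horizontal axis) of the 19 member probes on the 6 arrays, with 1 point per array, gray for 1G11-mock and red for 1G11-SOD3, vertical ticks at the means of 3 arrays, open points for spots not well above background and yellow bands for the 2 probes in the middle of the array. The Lox and Loxl3 points of 1G11-SOD3 lie to the right of those of 1G11-mock, those of Loxl4 and Loxl2 to the left, and the Loxl1 points are all open; levels of different probes are not comparable.

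Loxl3, another lysyl oxidase of the scavenger receptor type, had its only probe in the middle of the array (chr6:83001888-83001947). It read 8.26, 8.01 and 7.31 on the 1G11-mock arrays and 9.27, 9.57 and 9.20 on the 1G11-SOD3 arrays. The lines did not overlap, and 1 of 3 1G11-mock spots, with all 3 1G11-SOD3 spots, was well above background. The log2 fold change was 1.48 ± 0.28 (SE), or 2.80-fold, at an adjusted p of 0.0147 in limma. The surface at this spot differed by 1.26 between the lines, nearly as much as the probe did. After adjustment the value was 0.76 and the call was lost (adjusted p = 0.0797 in limma). It was also lost without 1G11-mock replicate 2 (1.56, adjusted p = 0.0504 in limma), without 1G11-SOD3 replicate 2 (1.37, adjusted p = 0.0601) and without 1G11-SOD3 replicate 3 (1.56, adjusted p = 0.0551). With no probe outside the dim area, the gene's difference cannot be told apart from the place of its spot.

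Loxl2, the lysyl oxidase best known for cross-linking basement membrane collagen IV, was lower on all 3 of its probes without passing the threshold. The first, whose sequence is given above, read 13.09, 12.94 and 12.91 on the 1G11-mock arrays and 12.38, 12.25 and 12.39 on the 1G11-SOD3 arrays. Its second probe (chr14:70095254-70095313) read 14.69, 14.84 and 15.15 against 14.29, 13.92 and 13.95, and its last (chr14:70090017-70090076) 13.54, 13.42 and 13.36 against 13.34, 12.76 and 13.08. No probe overlapped between the lines, although the last came close to it. The log2 fold changes were -0.64 (95% interval -1.11 to -0.18), -0.84 (-1.35 to -0.32) and -0.38 (-0.89 to 0.13), with adjusted p-values of 0.163, 0.0915 and 0.509 in limma. All spots were well above background. Before position adjustment, the intervals of the first pair exclude both 0 and a fall of more than 1.35 on the log2 scale. Position adjustment gave -0.43 ± 0.24, -0.60 ± 0.22 and -0.35 ± 0.23 (SE; adjusted p = 0.339, 0.15 and 0.415 in limma). The sign was negative in all 14 other settings and in all 6 fits with 1 array left out, for each probe, and none of these fits called it.

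Loxl1, which acts on elastin, was not measured above background. Neither probe was well above background on any array, with values from 6.86 to 7.58 over both lines. Their log2 fold changes were 0.15 and -0.17 (adjusted p = 0.841 and 0.812 in limma), or 0.62 and -0.23 after position adjustment, and the lines overlapped on both.

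Among the prolyl 4-hydroxylase subunits, which bind the collagen chain and carry the active site, none passed the threshold. P4ha1, the form found in most cells, had a dim probe (chr10:58835012-58835071) that read 7.11, 7.09 and 7.17 on the 1G11-mock arrays and 7.92, 7.68 and 7.92 on the 1G11-SOD3 arrays. These did not overlap, but no 1G11-mock spot and 1 of 3 1G11-SOD3 spots were well above background. Both levels are therefore close to the limit of the measurement. The log2 fold change was 0.72 (95% interval 0.25 to 1.19, adjusted p = 0.115 in limma), or 0.76 after position adjustment. The brighter probe (chr10:58835625-58835684) read 9.19, 8.69 and 9.12 against 9.36, 9.30 and 9.24. Its lines were separate by little, and its log2 fold change was 0.30 (95% interval -0.21 to 0.80; adjusted p = 0.615 in limma), or 0.45 after position adjustment. P4ha2, the form known from cartilage and endothelium, read 12.88, 12.73 and 12.46 against 13.11, 12.07 and 12.61. Here the lines overlapped fully, and the log2 fold change of -0.09 (95% interval -0.71 to 0.53) turned to 0.15 after position adjustment.

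P4ha3, the least abundant of the subunits in most tissues, read 10.64, 10.61 and 11.21 against 10.57, 10.36 and 10.34 by its first probe (chr7:107463120-107463179). By its second (chr7:107467431-107467490) it read 10.94, 11.57 and 11.77 against 11.56, 10.82 and 10.86. The first pair of sets lay just apart and the second overlapped, with 1G11-SOD3 replicate 1 as high as the upper 1G11-mock values. The log2 fold changes were -0.40 (95% interval -0.93 to 0.13) and -0.35 (-0.99 to 0.30), and position adjustment gave 0.02 and -0.17.

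No probe of the lysyl hydroxylases passed the threshold. Plod1, which hydroxylates lysines of the collagen helix, had 3 probes outside the middle. Probe 3 read 8.76, 9.11 and 9.17 on the 1G11-mock arrays and 7.89, 8.32 and 8.44 on the 1G11-SOD3 arrays. These sets did not overlap, and the log2 fold change was -0.80 (95% interval -1.33 to -0.27; adjusted p = 0.123 in limma), or -0.28 after position adjustment. The first probe, which lies farther along the transcript, read 7.65, 8.38 and 9.24 against 8.86, 8.74 and 8.73. Its 1G11-mock values spanned more than 1 log2 unit and overlapped the others, its log2 fold change was 0.36 (-0.40 to 1.11; 0.54 after position adjustment), and 2 of 3 1G11-mock spots were well above background. Probe 2 stayed near background on all arrays and gave 0.07, or 0.66 after position adjustment. The intervals of probes 1 and 3 overlap, and a difference between parts of the transcript was not tested.

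Plod2, which hydroxylates the telopeptide lysines from which the most stable cross-links form, had 1 probe (chr9:92502483-92502542). It read 10.43, 10.13 and 11.12 on the 1G11-mock arrays and 10.76, 10.77 and 11.64 on the 1G11-SOD3 arrays. Replicate 3 was the brightest in both lines, and the lines overlapped. The log2 fold change was 0.49 (95% interval -0.22 to 1.20; adjusted p = 0.543 in limma), with 0.86 after position adjustment, and it was called only from the processed signal of the scanner software, at 1.26 (adjusted p = 0.0323 in limma).

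Over the whole group, 10 of the 17 probes outside the middle did not overlap between the lines, 3 higher and 7 lower in 1G11-SOD3, where 8.24% and 11.4% of all probes did so. Of the 7 lower, 3 belong to Loxl2 and 2 to Loxl4, and probes of 1 gene share their transcript. The median log2 fold change of the 17 probes was -0.17, beside -0.06 over all probes outside the middle. After position adjustment it was 0.02 beside 0.09. In all, 11 of the 19 probes were well above background on all 6 arrays, 5 on some and 3 on none.

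**Figure D2:**
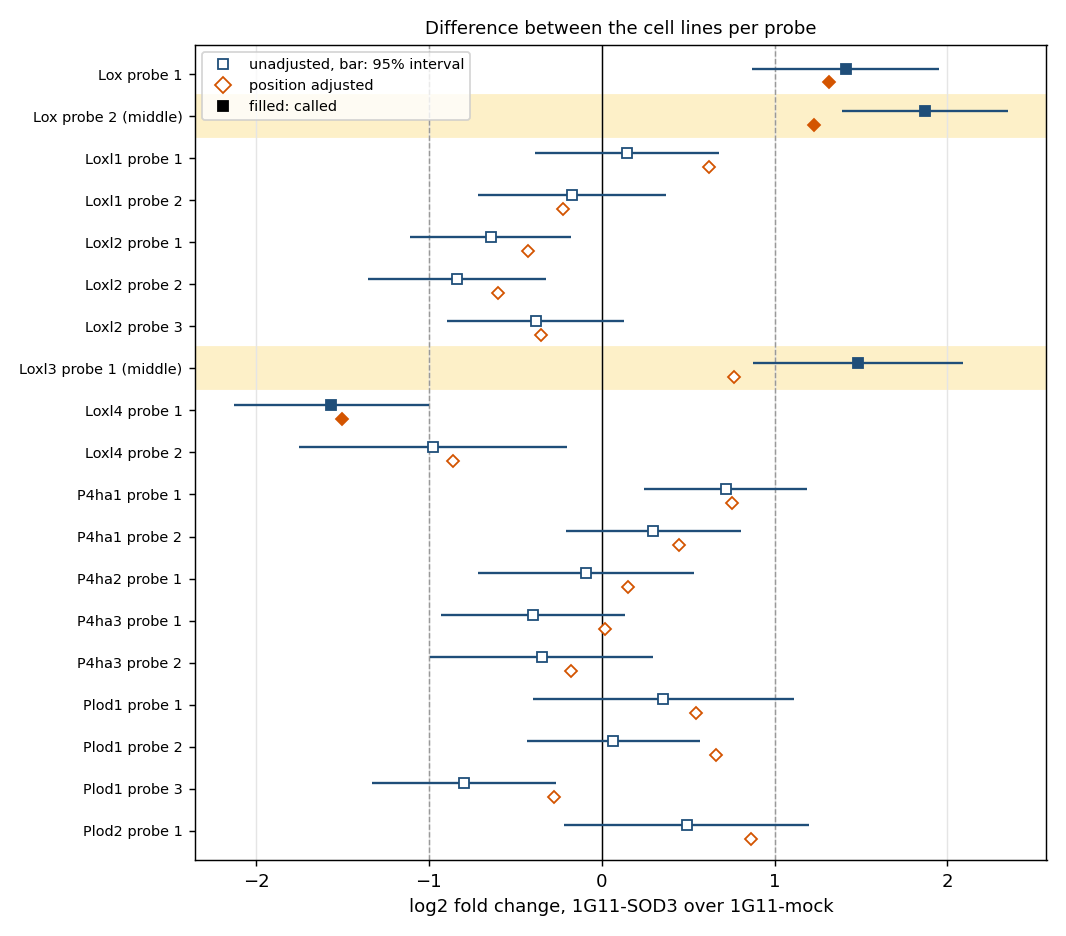
Log2 fold change of 1G11-SOD3 over 1G11-mock (horizontal axis) for each of the 19 member probes, as blue squares with bars for the 95% interval of the limma fit (n = 3 arrays per line) and, below them, as orange diamonds after position adjustment, filled where called, with dashed lines at 2-fold. The Lox probes and Loxl4 probe 1 stay filled in both fits, and Loxl3 goes from 1.48 to 0.76 and opens.

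The other genes of the pathway were taken by list. For collagen folding, hydroxylation and export, 21 genes had 26 probes outside the middle, of which 4 were called higher and 1 was called lower (median 0.08, beside -0.06 over all probes). The higher were P3h3, a relative of the prolyl 3-hydroxylases, at 1.79, Creb3l1, a transcription factor that drives collagen production, at 1.43, the collagen chaperone Serpinh1 at 1.38, and Sparc, a collagen-binding matrix protein, at 1.34 by 1 probe and 0.05 by the other. P3h2, a prolyl 3-hydroxylase that acts on collagen IV, fell by 1.19 on the log2 scale, and by 0.66, no longer called, after position adjustment. Its call was also lost with no background correction and in 5 of 6 fits with 1 array left out, the exception being that lacking 1G11-mock replicate 1 (adjusted p from 0.0591 to 0.104 in the 5, limma). The list held 2 to 4 higher calls with 1 array left out. The count of 4 fell to 2 without 1G11-mock replicate 2, without 1G11-SOD3 replicate 1 or without 1G11-SOD3 replicate 3. Sparc lost its call in 4 of 6 such fits and Serpinh1 in 3, while P3h3 and Creb3l1 kept theirs in all 6.

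Of 9 genes that trim or assemble collagen outside the middle, 1 of 13 probes was called, that of Adamts2, the protease that removes the amino-terminal propeptide, at 2.64. It read 12.42, 11.53 and 10.80 on the 1G11-mock arrays and 14.55, 14.29 and 13.82 on the 1G11-SOD3 arrays. Those sets lay well apart. The second Adamts2 probe had no 1G11-mock spot well above background and is given as a bound on the ratio of means, at least 1.84-fold. The 95% interval of its log2 fold change was 0.52 to 1.71. It was not called (adjusted p = 0.0519 in limma) but passed with the replicate number as a block (0.0275) and after position adjustment (0.0309). Among 3 genes of copper supply, which brings the lysyl oxidases their metal, no probe was called: the log2 fold changes were -0.73 for the pump Atp7a, 0.06 for the importer Slc31a1 and 0.22 for the chaperone Atox1.

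The next list held collagens and elastic fiber proteins that the enzymes modify, with their matrix partners. Of 15 probes for 14 genes, all outside the middle, 8 were called higher and none lower, where 0.660% of all probes were called higher. With dim probes left out, 8 of 13 were called higher, beside 381 of all 17670 outside the middle. This list was written with earlier results of these data known, so these shares are no test of it. The median log2 fold change of the 15 probes was 1.27. The type I collagen chain Col1a1 read 12.15, 11.31 and 10.50 on the 1G11-mock arrays and 14.43, 14.02 and 14.80 on the 1G11-SOD3 arrays, 8.56-fold higher (adjusted p = 0.00144 in limma). Col3a1 rose by 1.43 and Col5a2 by 1.46. Fmod, a small proteoglycan that binds collagen, rose by 1.97, and the elastic fiber protein Fbln5 by 1.55 on 1 probe and 0.41, not called and not above background, on the other. Lum, another collagen-binding proteoglycan, Col1a2 and elastin, Eln, had no spot well above background in 1G11-mock and 3 of 3 in 1G11-SOD3. They are given as bounds on the ratio of means, at least 3.35-fold, 2.21-fold and 2.28-fold higher, which leave out the spread between arrays. The 95% intervals of their log2 fold changes began at 1.00, 0.71 and 0.69. The basement membrane chains Col4a1 and Col4a2 had values of 0.23 and 0.19 and were not called, nor was the fibrillar chain Col5a1, at 0.28 (adjusted p = 0.611 in limma). After position adjustment 8 probes were called higher, beside 1.06% of all probes outside the middle called higher and 0.806% lower. The count was 4 with no background correction, and leaving out any 1 array lowered it. It was 5 without 1G11-mock replicate 1 or 1G11-SOD3 replicate 1, and 4 without 1G11-mock replicate 3 or 1G11-SOD3 replicate 2. It was 3 without 1G11-SOD3 replicate 3 and 2 without 1G11-mock replicate 2. By gene, the call was lost in 5 of 6 such fits for Fmod and Eln, and in 4 for Col1a2. It was lost in 3 for Col3a1, Col5a2 and Lum and in 2 for Fbln5, and Col1a1 kept its call in all 6.

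**Figure D3:**
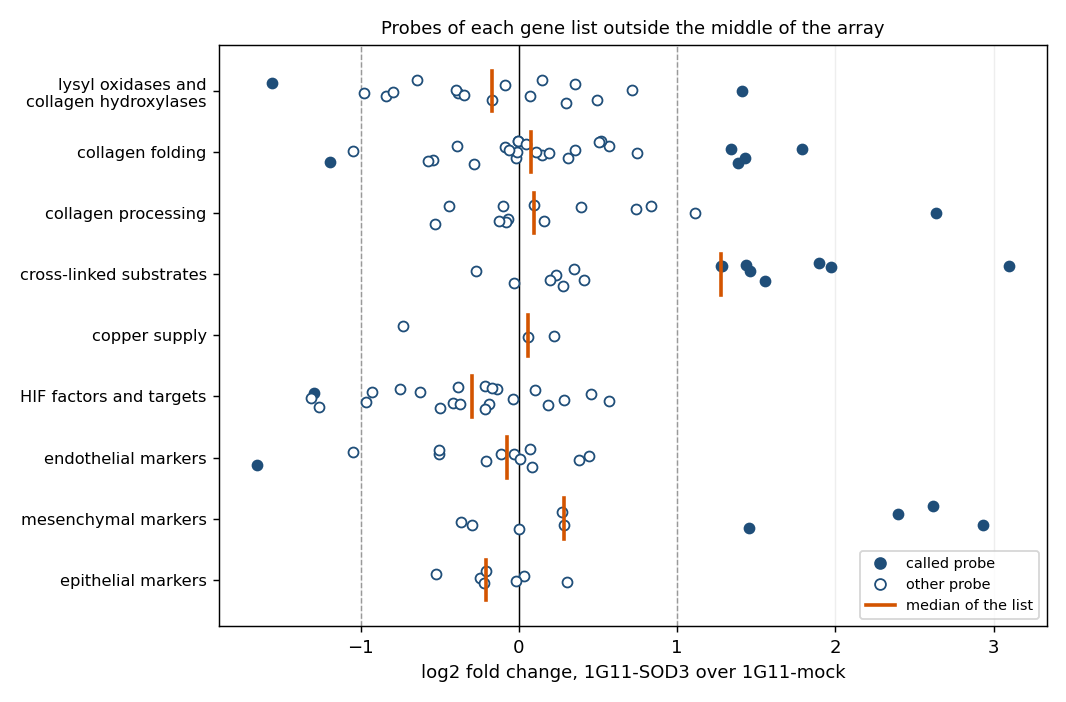
Log2 fold change of 1G11-SOD3 over 1G11-mock (horizontal axis) for the probes of each gene list outside the middle of the array, 1 point per probe, filled where called, with an orange bar at the list's median and dashed lines at 2-fold. The 8 filled points of the cross-linked substrates and the 4 of the mesenchymal markers lie to the right, beside 1 filled point on each side for the lysyl oxidases and collagen hydroxylases.

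HIF factors and targets other than the members had 1 of 22 probes called outside the middle, and that was lower. It was the second probe of Egln3, an oxygen-sensing hydroxylase, at -1.30 (adjusted p = 0.0251 in limma), while its other probe gave -0.38. The call was lost after position adjustment (-1.24, adjusted p = 0.0529 in limma) and in 5 of 6 fits with 1 array left out, again with that lacking 1G11-mock replicate 1 as the exception (adjusted p from 0.0566 to 0.112). The median of the list was -0.29. With the replicate number as a block, Hif1a at -1.27 (adjusted p = 0.144 without the block, 0.00997 with it, in limma) and the second probe of Vegfa at -1.32 (0.0974 and 0.022) passed as well, and the Vegfa probe also after position adjustment (-1.21, adjusted p = 0.0247 in limma). Those probes are named because these settings changed their call. No HIF list probe outside the middle was called higher in the unblocked fit. Of the members named above as HIF targets, Lox, Loxl2, P4ha1, P4ha2 and Plod2, only Lox was called higher and none lower. Loxl4, which was called lower, was not counted among them here.

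Markers of cell types stood beside these results as follows. Of the 10 endothelial genes measured outside the middle, Cdh5, Tek, Tie1, Erg and Emcn were well above background on no array of either line, and Eng, Vwf and 1 probe of Kdr on all 6. Vwf fell by 1.66 on the log2 scale (adjusted p = 0.0033 in limma). Eng at -1.05 (adjusted p = 0.0831 in limma) and that probe of Kdr at -0.51 (adjusted p = 0.298 in limma) were not called. Of the 12 endothelial probes, 7 were above background on no array. The summed log2 intensity of all 12 ran from 99.1 to 104.3 in 1G11-mock and from 96.1 to 99.7 in 1G11-SOD3. These sums overlapped, but they include the 7 probes near background. Vwf, Eng and that probe of Kdr were lower without overlap, where 11.4% of all probes outside the middle were. None of the 12 was higher without overlap. Pecam1 at -0.51 and Cldn5 at -0.03 were not called. Mesenchymal markers had 4 of 9 probes called higher, where 0.660% of all probes outside the middle were. This list was written with earlier results of these data known, so the share is no test of it. The 4 were the smooth muscle actin Acta2 at 2.62, the calponin Cnn1 at 2.94, the receptor Pdgfrb at 2.40 and the actin-binding Tagln at 1.45. Cnn1 had no spot well above background in 1G11-mock and 3 of 3 in 1G11-SOD3, and its 95% interval was 2.04 to 3.83. The summed log2 intensity of the 9 probes ran from 81.4 to 83.3 in 1G11-mock and from 91.4 to 92.1 in 1G11-SOD3. These sums did not overlap, but they include the 4 called probes and do not show a shift of the whole list. Pdgfra at 0.27 (adjusted p = 0.622 in limma), above background on all arrays, was not called. Des at -0.0006, Myh11 at -0.30 and Thy1 at -0.37 were not called either. Dcn read 14.78, 14.48 and 14.04 in 1G11-mock and 13.51, 13.59 and 17.05 in 1G11-SOD3, and its log2 fold change of 0.29, not called, turned to -0.88 without 1G11-SOD3 replicate 3. Des and Myh11 were above background on no array. Epithelial markers had 0 of 7 probes called outside the middle, with Epcam, Cldn4 and Krt18 above background on no array. Krt19 was above background on all 6, with 1G11-mock arrays between 16.02 and 16.76 and 1G11-SOD3 arrays between 15.40 and 16.35. Lox and the called collagens Col1a1, Col1a2, Col3a1 and Col5a2 were higher in the same line as the called mesenchymal markers, and the part of cell makeup or cell state in their values was not tested.

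**Figure D4:**
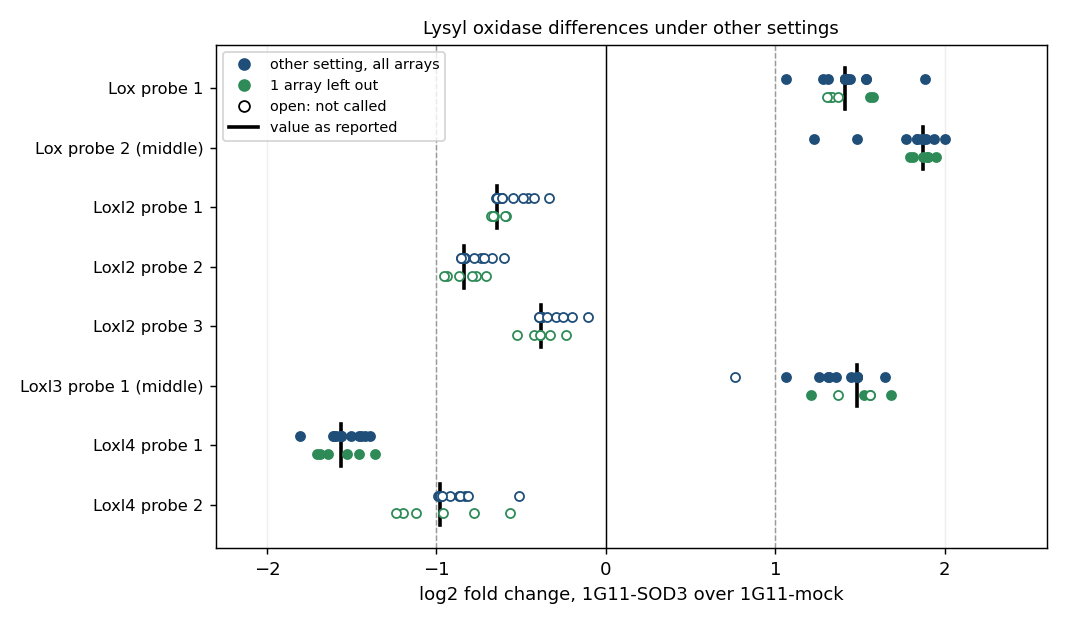
Log2 fold change (horizontal axis) of the measured lysyl oxidase probes under other settings of the analysis with all arrays (blue) and with 1 array left out (green), filled where called, with the value as reported as a black bar and dashed lines at 2-fold. Lox and Loxl4 probe 1 stay on their side of the 2-fold lines throughout, Lox probe 1 and Loxl3 each open in 3 of 6 fits with 1 array left out, and Loxl3 also with the position adjustment.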

How the data were processed

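The authors deposited the scanner output of 6 one-color Agilent arrays (Feature Extraction 10.7.3.1), with mean, median, local background and processed intensity per spot, none normalized between arrays, and their log2 values after normexp background correction (offset of 50) and quantile normalization; limma is the tool named in the submitters' processing notes. A flag for spots well above background is a further deposited score of the scanner software. The deposited log2 values had a median of 7.52 on each array, and the same steps run on median pixel intensities with control spots kept matched them to within 0.005.

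Here, mean intensities were corrected with normexp (local background median, offset of 50), taken to log2 and quantile normalized over non-control spots with limma 3.58.1 in R 4.3.3. Outlier spots were left out, and spots of 1 probe were averaged apart in and out of the middle of the array. The lines were tested with lmFit and eBayes of limma, with p-values adjusted by Benjamini-Hochberg over all 55961 values; called means beyond 2-fold with an adjusted p below 0.05, as in the study's methods. The number of arrays, 3 per line, limits the precision (an exact permutation test could not go below p = 0.1). A bound sets the bright line's mean against the mean, per array of the dim line, of the higher of its own value and the lowest signal well above background. Such a bound does not take in the spread between arrays. Intervals are 95% moderated t intervals of limma.

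The position adjustment took a Gaussian surface of deviations (SD of 8 rows and 4 columns, which left the smallest spread among 5 widths tried) off each array; it lowered the SD of the difference between the lines among copies of 191 probes from 0.43 to 0.17. Gene names came from RefSeq accessions (27650 of 55681 probes; 29246 were named in all). Deviations from the line means of same-numbered arrays correlated at 0.17, 0.10 and 0.16 over 16354 probes; the pairing comes from the labels' replicate numbers, which also give the place on the slide, so the number as a block is an alternative. The members and lists were chosen with earlier results of these data known. Members are named by every probe, and genes of other lists where a probe outside the middle was called, with exceptions stated. Alternatives were an offset of 16 or uncorrected intensities, median pixel or processed intensity, 75th percentile scaling, cyclic loess, control or outlier spots kept, dim probes or the middle left out, a variance trend, the block, the deposited table, the position adjustment and each array left out in turn. Python 3.11.15 served for tables and figures.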

Additional observations from a re-analysis of the deposited data

How the results depend on the processing

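The number of member probes called outside the middle was 2 in all settings with all arrays but the scanner's processed signal. There, scaled to its 75th percentile, it was 4 (Loxl1 probe 2, not above background on any array, at -1.24, and Plod2 at 1.26 were added). Of all 49526 probes outside the middle, 7246 were called lower and 677 higher in that setting, with a median log2 fold change of -0.50. With 1 array left out the number of member probes called ran from 1 to 2. The 2 calls in the middle became 1 after position adjustment, where Loxl3 was lost at 0.76, and ran from 1 to 2 with 1 array left out. The 20 calls among the other listed probes outside the middle ran from 15 to 27 over the other settings. The 27 came from the processed signal, with 17 higher and 10 lower. With 1 array left out the calls ran from 11 to 18 (11 without 1G11-mock replicate 2 or 1G11-SOD3 replicate 3, 13 without 1G11-SOD3 replicate 2). With the replicate number as a block, which pairs the arrays, the counts were 2, 2 and 23, and the block changed no call other than those of Hif1a, Adamts2 and Vegfa and, in the middle, Esam. No called member probe changed its sign in any setting. In the processed signal, and for probes near background in general, the cause of the added calls was not tested. Signal over background limits Loxl1, Plod1 probe 2 and P4ha1 probe 1, and the 1G11-mock levels of Lox and Loxl3.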
